A study of Mus musculus with 6 samples.

Results

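Lysosomes are the acidic compartments in which cells break down proteins, lipids and sugar chains, and autophagy is the route that wraps a cell's own material in a double membrane and hands it to them. The genes described here were 33 genes of that system, taken by name and not by any measured value: 5 genes of lysosomal membrane proteins, 15 genes of lysosomal enzymes and their cofactors, 11 autophagy genes and 2 transcription factors that switch lysosomal genes on. All 33 were among the 22964 genes of the count table. They were followed in lymphatic endothelial cells of the mouse meninges, the membranes around the brain, at 2 ages.

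Old samples, numbered 1 to 3, came from wild-type male C57BL/6J mice of 20 to 24 months, and young samples 1 to 3 from mice of the same strain, genotype and sex at 2 to 3 months. None were treated. Cells lacking CD45 and carrying CD31 and podoplanin were sorted, and their RNA was amplified linearly before sequencing. The sources used here do not say whether a sample was 1 animal or a pool, so the p-values below speak only of sample-to-sample spread, part of which may be technical.

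The samples held 14285794 to 21043945 estimated counts. Lymphatic endothelial markers were present throughout: the 10 markers summed to 17885 to 22127 CPM (counts scaled to a common library size of 1000000) in old samples and 11456 to 14153 CPM in young samples, and Prox1, the fate-setting transcription factor, had 932 to 1410 CPM in old and 877 to 945 CPM in young samples. RNA of other cells was present too. The 18 macrophage and microglia markers, a cell class rich in lysosomes, summed to 935, 2576 and 1614 CPM in old samples 1, 2 and 3, against 907, 3958 and 5427 CPM in young samples 1, 2 and 3. Of those 18 markers, 2 in old sample 1 and 1 in old sample 2 were at 0. The sum in old sample 1 was mostly Mrc1, a marker named after its values were seen, which are given at the end. Ptprc, which encodes CD45, had 31.0, 30.7 and 62.9 CPM in the old samples and 0.993, 57.4 and 72.7 CPM in the young samples. In bulk RNA such as this, fewer cells of a type and less RNA per cell cannot be told apart.

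As background, lysosomal hydrolases are made in the endoplasmic reticulum and carried to the lysosome, many of them by mannose 6-phosphate receptors. The factors TFEB and TFE3 bind a palindromic element, the CLEAR element, near the start of many lysosomal genes, and the kinase complex mTORC1 at the lysosomal surface holds them in the cytoplasm when nutrients are plentiful. In lymphatic endothelium, autophagy and lysosomal lipid breakdown are known to feed the metabolism that keeps up Prox1 expression.

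No single one of the 33 genes passed the test, and for all but 3 of them the old and young samples overlapped. All 33 had enough counts to be tested, and edgeR's quasi-likelihood test with Benjamini-Hochberg adjustment over 15394 genes called 0 of them, as it called 0 of all genes (0%). At an unadjusted p under 0.05, 4 of the 33 (12.1%) stood out by edgeR, against 856 of all tested genes (5.56%). Of these 4, Mcoln2, an ion channel gene, was higher in old samples (2.86% of all genes were higher by this measure), and the hydrolase genes Hexa, Ctsd and Ctsa were lower (2.70% of all genes). Mcoln2 passed the count filter through the old samples alone, so that its place among the 4 carries no weight. Leaving out 1 of young samples 2 and 3 or old sample 3 brought the number lower to 1, which was Hexa. DESeq2 called 1 of the 33, again Mcoln2, and 0.882% of the genes to which it gave an adjusted p, while limma-voom called none of the 33 and 0.0195% of all genes.

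Those shares have to be read with the level of the genes, since most of the 33 were well expressed. Among genes with a mean of at least 50 CPM, 9.55% had an unadjusted p under 0.05 by edgeR, and among the 22 of the 33 genes at that level 13.6% did, which was 3 genes. The biological coefficient of variation is edgeR's estimate of the spread between samples of 1 age beyond counting error. It is drawn toward that of genes of like level, so it is not the measured spread of a gene. For Lamp1 it was 28.3%. The CPM of Lamp1 were 450 ± 26.3 in old and 489 ± 34.6 in young samples (SD, n = 3 each). The median estimate was 37.7% over those 22 genes and 42.0% over all genes of at least 50 CPM. For 9 of the 33 genes, all of them among the 22, the 95% interval of the old over young fold change lay wholly within 2-fold either way. That was so for 5.34% of all tested genes and for 21.7% of the genes of at least 50 CPM. These 9 were Lamp1, Lamp2, Cd63, Ctsb, Ctsl and Psap of the lysosome and Gabarap, Gabarapl1 and Sqstm1 of autophagy.

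**Figure D1:**
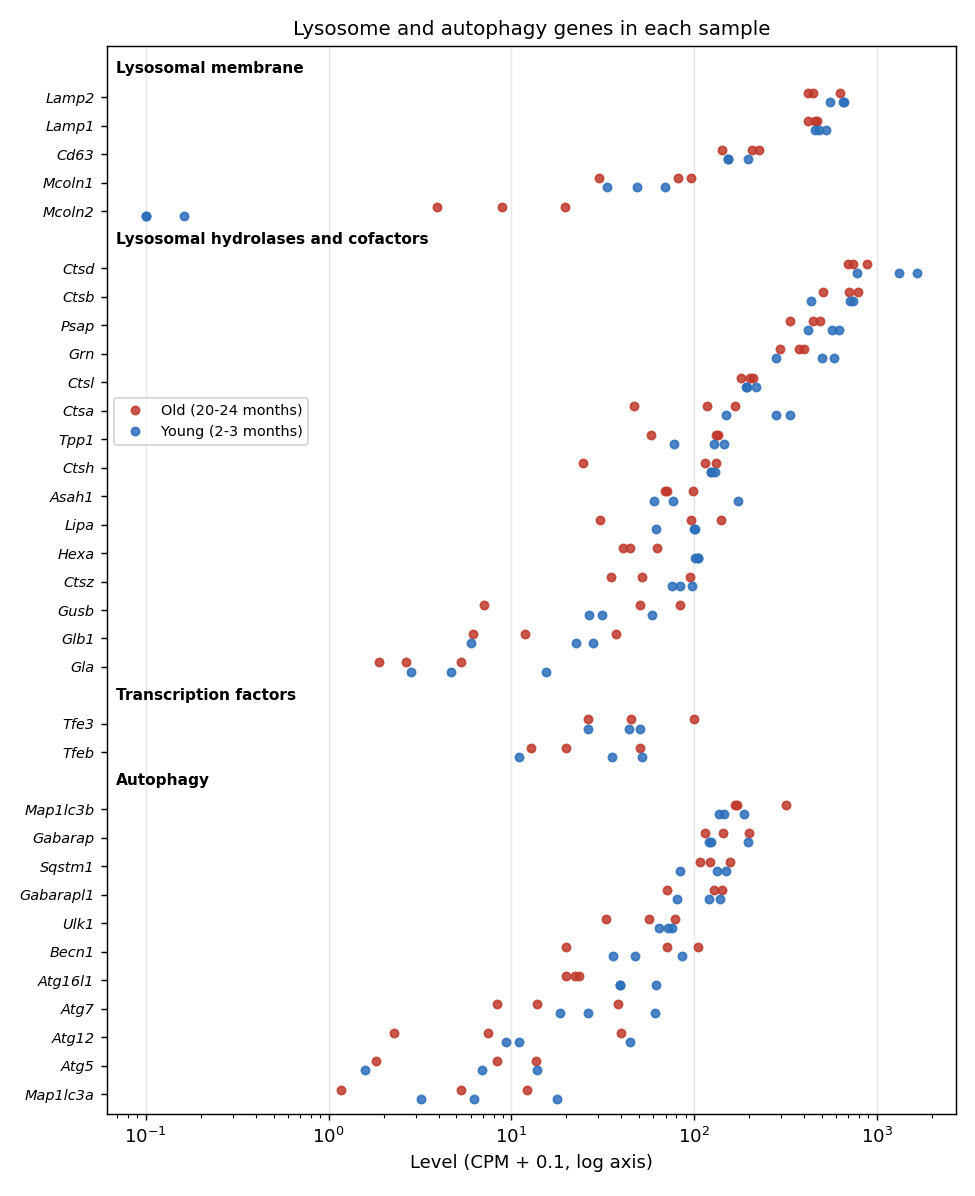
CPM plus 0.1 on a log axis for each of the 33 genes, 1 point per sample, with old and young samples in different colours and genes grouped by role. Points of the 2 ages are mixed for most genes, and Mcoln2 is the gene whose old and young points lie farthest apart.

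The genes of structural proteins of the lysosomal membrane did not separate the ages. Lamp1, 1 of the 2 heavily glycosylated proteins that coat the inside of the membrane, had 469, 420 and 460 CPM in old samples and 459, 527 and 480 CPM in young samples. The ranges overlapped, the log2 fold change of old against young was −0.12 ± 0.19 (SE), and its 95% interval ran from 0.681-fold to 1.24-fold. Lamp2, the partner protein that also serves chaperone-mediated autophagy, had 418, 626 and 449 CPM in old samples and 658, 553 and 651 CPM in young samples. Old sample 2 lay among the young ones, and the log2 fold change was −0.32 ± 0.22 (SE), with an interval of 0.566-fold to 1.14-fold. Cd63, a tetraspanin of late endosomes and lysosomes, averaged 193 ± 44.1 CPM in old and 168 ± 26.0 CPM in young samples (SD, n = 3 each).

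Of the 2 mucolipin channel genes, which encode calcium-permeable channels of endosomes and lysosomes, Mcoln2 was the gene with the widest difference between the ages among the 33. Mcoln1, the broadly expressed family member that releases lysosomal calcium, had 81.1, 96.6 and 30.0 CPM in old samples and 48.5, 33.2 and 69.2 CPM in young samples, which overlapped. Mcoln2 (chromosome 3, 146149833 to 146195513, plus strand, GRCm38), known in mouse mainly from recycling endosomes of immune cells, had 260, 121 and 78 counts in old samples and 1, 0 and 0 counts in young samples. In CPM these were 19.5, 8.79 and 3.81 in old samples and 0.0621, 0 and 0 in young samples, so every old sample was above every young one. Over the 3 samples of each age the summed counts were 459 in old and 1 in young samples. At equal depth that is a ratio of 559, with a 95% exact counting interval of 99.9 to 22140 that leaves out the spread between samples. The fitted log2 fold change of 8.70 ± 1.93 (SE) had an edgeR unadjusted p of 0.00109 and an adjusted p of 0.597. The adjusted p was 0.000126 with DESeq2 and 0.720 with limma-voom, and over all settings tried it ran from 0.000126 to 1. Mcoln2 passed the count filter through the old samples alone, so that it had to differ.

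Mcoln2 was highest in old sample 1, where the macrophage markers summed to 935 CPM, and at 0 in young samples 2 and 3, where they summed to 3958 and 5427 CPM. The 12 markers of lymphocytes and plasma cells, a list added after the values were seen, of which 10 were in the table, summed to 112, 940 and 1764 CPM in old samples 1, 2 and 3 and to 81.0, 1069 and 109 CPM in young samples. The part of immune cell RNA in the Mcoln2 values was not tested. Mcoln2 stayed low per length at both ages, at 3.25 CPM per kilobase of exon in old and 0.00629 in young samples, against a median of 4.63 over all tested genes and both ages. The third family member, Mcoln3, had 0, 1.16 and 0 CPM in old samples and 0, 0 and 4.10 CPM in young samples, too few counts to be tested, and was chosen for mention after its values were seen.

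Among the 15 genes of lysosomal enzymes and cofactors, 12 had a negative log2 fold change, with a median of −0.35. Over all tested genes 49.0% were negative and the median was 0.02. The 7 protease genes had a median of −0.48 with 6 of 7 negative, the 4 glycosidase genes −0.55 with 3 of 4 negative, and the 3 genes of lipid breakdown −0.34 with 2 of 3 negative. These are counts and medians of single-gene values that did not pass the adjusted test, and they are given as a description.

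Ctsd, the gene of the aspartic protease cathepsin D, was the most abundant of the 33 genes per length, with 330 CPM per kilobase in old and 532 in young samples. It lies on chromosome 7, 142375911 to 142388038, minus strand. Its exons share 808 bases with Gm49369 on the same strand, a gene without counts here, so the level of Ctsd is uncertain. Ctsd had 745, 882 and 700 CPM in old samples and 777, 1316 and 1658 CPM in young samples. Young sample 1 fell inside the range of the old samples, and the other 2 young samples were above it. The means were 776 ± 95.04 CPM in old and 1251 ± 444 CPM in young samples (SD, n = 3 each), and the log2 fold change was −0.69 ± 0.27 (SE), with an edgeR unadjusted p of 0.0329 and an adjusted p of 0.888. Without young sample 3 the log2 fold change was −0.44 with an unadjusted p of 0.148 by edgeR, and without young sample 1 it was −0.94 with 0.00169. DESeq2 gave an unadjusted p of 0.07 over all samples. By edgeR the unadjusted p was 0.0789 when young sample 2 was left out, 0.0763 when old sample 1 was and 0.0974 when old sample 3 was.

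The summed macrophage markers ran in the same order over the young samples as Ctsd, lowest in sample 1 and highest in sample 3. Over the old samples the order differed, with Ctsd lowest in sample 3 and the marker sum lowest in sample 1. Of the 18 markers, 17 had a negative log2 fold change, with a median of −1.53. At an unadjusted p under 0.05 by edgeR, 0 were lower and 1 was higher, and their median biological coefficient of variation was 88.2%. Their part in the Ctsd values was not tested.

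Ctsa, the gene of cathepsin A, a carboxypeptidase that also protects β-galactosidase and neuraminidase in a complex, showed a like pattern. It had 46.8, 167 and 117 CPM in old samples and 149, 336 and 282 CPM in young samples. Young sample 1 again fell within the old range, and old sample 1 was the lowest of all. The log2 fold change was −1.21 ± 0.49 (SE), with an interval of 0.200-fold to 0.933-fold, an edgeR unadjusted p of 0.0359 and an adjusted p of 0.888. By edgeR the unadjusted p was 0.126 or 0.0876 when young sample 2 or 3 was left out, and 0.068 or 0.0734 when old sample 1 or 3 was. Ctsa (chromosome 2, 164832873 to 164841032, plus strand) shares 495 bases of exon with Pltp on the opposite strand, whose counts came to 49.0% of its own. Nothing used here says whether the counting took account of strand, so its level is uncertain. The macrophage markers were also lowest in old sample 1 and young sample 1 within each age, and their part in the Ctsa values was not tested.

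Hexa, the gene of the α subunit of β-hexosaminidase, which removes a sugar from GM2 ganglioside, was the hydrolase gene whose ages did not overlap. It had 40.9, 44.5 and 62.5 CPM in old samples and 106, 102 and 105 CPM in young samples. All 3 old samples were below all 3 young ones, and the young samples lay within a narrow band. The means were 49.3 ± 11.6 CPM in old and 104 ± 2.26 CPM in young samples (SD, n = 3 each), a log2 fold change of −1.08 ± 0.36 (SE) and an interval of 0.267-fold to 0.840-fold. The edgeR unadjusted p was 0.0162 and the adjusted p 0.855, and the unadjusted p stayed between 0.00494 and 0.0478 in the 14 settings computed. With DESeq2 the adjusted p was 0.202. Unlike Ctsd and Ctsa, Hexa was no lower in young sample 1 than in the other young samples. Hexa (chromosome 9, 59539540 to 59565109, plus strand) shares 255 bases of exon with Tmem202 on the opposite strand, a gene not analysed here.

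Across all 33 genes, 1 had old samples wholly above young ones, which was Mcoln2, against 5.56% of all tested genes. There were 2 with old samples wholly below young ones, Hexa and the autophagy gene Atg16l1, against 6.44% of all tested genes, so these counts were near or under what the whole table gave.

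Single macrophage markers varied widely within each age. Cd68, a glycoprotein of macrophage lysosomes, had 5.46, 24.4 and 19.6 CPM in old samples and 15.3, 45.5 and 110 CPM in young samples, and C1qa, a complement gene of macrophages and microglia, had 1.95, 56.4 and 19.6 CPM in old and 21.3, 147 and 61.0 CPM in young samples.

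**Figure D2:**
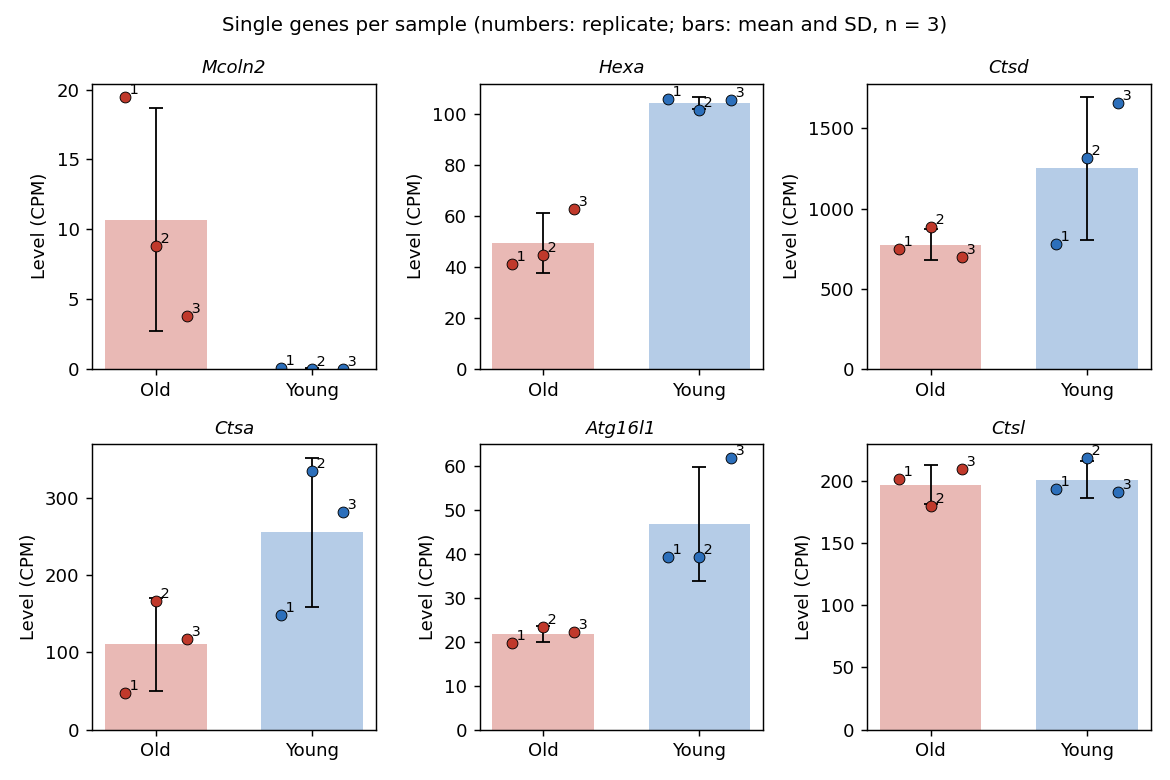
CPM in each sample for Mcoln2, Hexa, Ctsd, Ctsa, Atg16l1 and Ctsl, with old samples left of young samples in each panel, bars at the mean and error bars of 1 SD (n = 3). The ages do not overlap for Mcoln2, Hexa and Atg16l1, young sample 1 sits with the old samples for Ctsd and Ctsa, and the ages are mixed for Ctsl.

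The other protease genes did not separate the ages. Ctsb, a cysteine protease gene, had 791, 506 and 705 CPM in old samples and 437, 744 and 713 CPM in young samples, with a log2 fold change of 0.08 ± 0.27 (SE) and an interval of 0.695-fold to 1.61-fold. Ctsl, another cysteine protease gene, was among the steadiest, with 202, 180 and 210 CPM in old samples and 194, 218 and 191 CPM in young samples. Its means were 197 ± 15.6 CPM in old and 201 ± 15.05 CPM in young samples (SD, n = 3 each). Ctsh, an aminopeptidase gene, had 24.7, 131 and 115 CPM in old samples and 124, 123 and 131 CPM in young samples, so that old sample 1 alone stood apart. Ctsz, a carboxypeptidase gene, averaged 60.6 ± 30.6 CPM in old and 85.5 ± 11.2 CPM in young samples (SD, n = 3 each), and Tpp1, a tripeptidyl peptidase gene, averaged 109 ± 43.7 and 117 ± 35.3 CPM in the same order. For these 5 genes the old and young ranges overlapped, and the smallest edgeR unadjusted p was 0.300, for Ctsz, with an adjusted p of 0.945.

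Of the remaining glycosidase genes, Glb1, which encodes β-galactosidase, the enzyme behind the staining used to mark senescent cells, showed no separation of the ages. It had 6.06, 11.8 and 37.4 CPM in old samples and 5.90, 22.4 and 27.8 CPM in young samples, with a log2 fold change of −0.02 ± 0.94 (SE). Glb1 shares 165 bases of exon with Tmppe on the same strand, whose counts came to 20.3% of its own. Gusb, the β-glucuronidase gene, had 83.2, 50.7 and 6.98 CPM in old samples and 26.7, 31.2 and 58.6 CPM in young samples. Gla, the α-galactosidase gene, was the lowest of the hydrolase genes per length and averaged 3.19 ± 1.81 CPM in old and 7.55 ± 6.80 CPM in young samples (SD, n = 3 each). For these 3 genes the samples of 1 age varied more than the ages did.

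Genes of lipid breakdown and progranulin overlapped between the ages. Psap, whose product is cut into the saposins that help enzymes reach sphingolipids, had 488, 336 and 449 CPM in old samples and 420, 624 and 569 CPM in young samples. Its log2 fold change was −0.34 ± 0.24 (SE), with an interval of 0.540-fold to 1.15-fold. Grn, which encodes progranulin, a secreted protein processed to granulins in the lysosome, had 297, 377 and 398 CPM in old samples and 281, 499 and 583 CPM in young samples, and young sample 1 was the lowest of all 6. Lipa, the gene of lysosomal acid lipase, averaged 88.7 ± 55.0 CPM in old and 87.4 ± 22.4 CPM in young samples, and Asah1, the acid ceramidase gene, 79.8 ± 16.6 CPM in old and 104 ± 61.7 CPM in young samples (SD, n = 3 each).

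**Figure D3:**
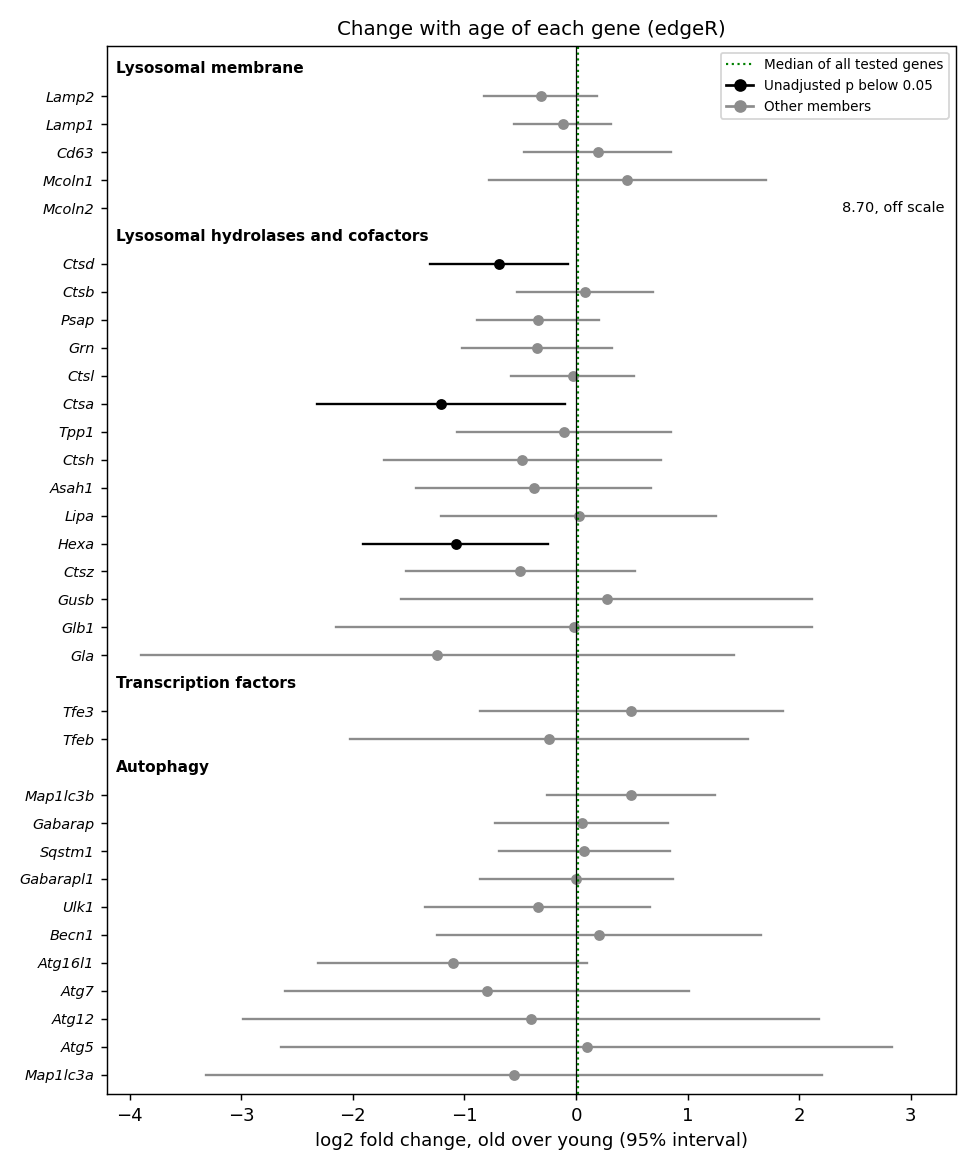
Log2 fold change of old against young for the 33 genes with 95% intervals, grouped by role, where 0 means equal levels. Most intervals cross 0, those of Hexa, Ctsd and Ctsa lie below it, and Mcoln2 at 8.70 is marked as off the scale.

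The samples of both ages overlapped for the 2 transcription factor genes, whose levels of 5.32 CPM per kilobase for Tfeb and 5.25 for Tfe3 over both ages were near the 4.63 of all tested genes. Tfeb, which drives lysosomal gene expression when mTORC1 is off, had 12.8, 19.8 and 50.4 CPM in old samples and 35.6, 10.97 and 51.6 CPM in young samples. Tfe3, its relative with the same target element, had 99.6, 45.0 and 26.1 CPM in old samples and 26.3, 44.0 and 50.8 CPM in young samples. The log2 fold changes of old against young were −0.24 ± 0.79 (SE) for Tfeb and 0.50 ± 0.60 (SE) for Tfe3, with overlapping samples for both. These are transcript levels, and the activity of both factors is set mainly by where the protein is in the cell.

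Because the lysosomal genes are known targets of these factors, promoter windows of 250 bases before to 50 bases after the start were read from RefSeq (GRCm38.p6) and searched on both strands. Windows were found for 26 of the 33 genes. The core of the CLEAR element, TCACGTGA, which reads the same on both strands, was in 4 of those 26 genes, against 1.12% of all genes with a window. The 4 were Ctsd, Ctsa, Gla and Mcoln1, all lysosomal, which is 4 of 17 lysosomal genes and 0 of 7 autophagy genes. The shorter E-box CACGTG, which every core contains, was in 10 of the 26 genes, against 8.09% of all genes. It was in 8 of the 17 lysosomal genes (47.1%) and 2 of the 7 autophagy genes (28.6%). The longer form of the element, the core with G before and C after it, was in none of the 31 windows of these genes and in 0.326% of all windows.

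Of the 3 hydrolase genes with an unadjusted p under 0.05, Ctsd and Ctsa held the core and Hexa held neither core nor E-box in its window, while Mcoln2 held an E-box alone. These windows are shown in lower case and 5′ to 3′ on the strand of the gene, with each core or lone E-box in capitals. A match describes the letters only and shows no binding. The first capital of the core lies 99 bases before the start in Ctsd (chr7:142387778-142388077, minus strand), and that of the first of 2 cores lies 13 bases before it in Ctsa (chr2:164833523-164833822, plus strand). The E-box of Mcoln2 (chr3:146149924-146150223, plus strand) begins 72 bases before the start, and the Hexa window is chr9:59539290-59539589, plus strand.
Ctsd: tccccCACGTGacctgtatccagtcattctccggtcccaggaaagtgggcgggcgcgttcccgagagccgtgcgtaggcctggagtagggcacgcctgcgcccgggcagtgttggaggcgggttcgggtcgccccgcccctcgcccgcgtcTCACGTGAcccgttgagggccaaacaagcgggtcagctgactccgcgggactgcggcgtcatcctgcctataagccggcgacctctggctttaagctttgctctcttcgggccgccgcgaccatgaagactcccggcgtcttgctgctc
Ctsa: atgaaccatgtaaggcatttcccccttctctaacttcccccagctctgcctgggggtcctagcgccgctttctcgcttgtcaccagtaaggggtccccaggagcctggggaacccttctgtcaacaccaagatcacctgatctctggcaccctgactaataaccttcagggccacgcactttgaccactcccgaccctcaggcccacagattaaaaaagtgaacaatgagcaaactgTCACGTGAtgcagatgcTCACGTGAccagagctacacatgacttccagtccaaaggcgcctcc
Hexa: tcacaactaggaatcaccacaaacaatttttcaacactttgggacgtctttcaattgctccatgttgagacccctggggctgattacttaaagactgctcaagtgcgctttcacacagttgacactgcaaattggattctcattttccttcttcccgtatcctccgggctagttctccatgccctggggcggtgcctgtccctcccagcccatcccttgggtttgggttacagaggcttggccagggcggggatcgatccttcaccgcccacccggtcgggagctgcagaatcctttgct
Mcoln2: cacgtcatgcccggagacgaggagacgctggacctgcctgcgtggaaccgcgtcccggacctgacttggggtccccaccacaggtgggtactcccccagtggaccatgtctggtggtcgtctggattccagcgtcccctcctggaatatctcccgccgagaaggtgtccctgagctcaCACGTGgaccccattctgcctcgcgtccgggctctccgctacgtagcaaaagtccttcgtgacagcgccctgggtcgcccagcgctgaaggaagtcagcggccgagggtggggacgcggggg

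The other 2 genes with the core are shown as 40 bases around it. In Mcoln1 (chr8:3500457-3500496, plus strand) it begins 46 bases before the start, and in Gla (chrX:134601210-134601249, minus strand) 228 bases before it.
Mcoln1: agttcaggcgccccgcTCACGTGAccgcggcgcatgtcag
Gla: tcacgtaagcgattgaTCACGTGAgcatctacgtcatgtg

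The log2 fold changes of the 4 genes with a core did not share a direction, at −0.69 for Ctsd, −1.21 for Ctsa, −1.24 ± 1.17 (SE) for Gla and 0.46 ± 0.55 (SE) for Mcoln1.

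The autophagy genes, with 1 exception, did not separate the ages. Of the 11 genes, 6 had a positive and 5 a negative log2 fold change, with a median of 0.00, and none had an unadjusted p under 0.05 by edgeR, against 5.56% of all tested genes.

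In the step that starts the process, Ulk1, the kinase that mTORC1 restrains, had 32.8, 78.2 and 56.5 CPM in old samples and 72.2, 76.0 and 64.5 CPM in young samples. Becn1, a subunit of the lipid kinase complex that marks the growing membrane, had 105, 70.6 and 19.7 CPM in old samples and 85.8, 47.6 and 36.1 CPM in young samples. Both overlapped between the ages, and Becn1 shares 3104 bases of exon with Cntd1 on the opposite strand, whose counts were 7.004% of its own.

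Of the 33 genes, Atg16l1 was the one autophagy gene in which the ages did not overlap. Atg16l1 (chromosome 1, 87755870 to 87792428, plus strand), which places the conjugating complex on the membrane, had 19.8, 23.5 and 22.2 CPM in old samples and 39.3, 39.3 and 61.8 CPM in young samples. All 3 old samples lay below all 3 young ones, with means of 21.8 ± 1.88 CPM in old and 46.8 ± 13.0 CPM in young samples (SD, n = 3 each). The log2 fold change was −1.10 ± 0.53 (SE), and its interval ran from 0.202-fold to 1.07-fold. It did not pass, with an edgeR unadjusted p of 0.0681 and an adjusted p of 0.891. The unadjusted p was 0.0445 by edgeR with library size alone and 0.0211 by DESeq2.

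The other conjugation genes among the 33 were low and scattered. Atg5, joined to the ATG12 protein in the same complex, had 1.72, 13.5 and 8.25 CPM in old samples and 1.49, 13.7 and 6.84 CPM in young samples, so sample 1 of each age was the lowest. Atg7, the activating enzyme of the reaction, had 8.31, 13.7 and 38.5 CPM in old samples and 60.7, 18.3 and 26.2 CPM in young samples. Atg12, the ubiquitin-like partner, ranged from 2.17 to 39.6 CPM in old samples and from 9.24 to 44.7 CPM in young samples. At these counts even a change of 2-fold in either direction lies within the 95% interval of each of these 3 genes.

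LC3 and GABARAP proteins are fixed to the autophagic membrane. Their genes, apart from Map1lc3a, and the gene of their cargo receptor were the most abundant of the 11 autophagy genes. Map1lc3b, the gene of the widely used marker LC3B, had 320, 168 and 173 CPM in old samples and 137, 187 and 145 CPM in young samples. Old sample 1 alone was above the young range, and the log2 fold change was 0.49 ± 0.33 (SE), with an interval of 0.833-fold to 2.37-fold. The annotation holds 5 near-identical copies of Map1lc3b elsewhere in the genome, and its exons meet those of Zcchc14 on the opposite strand, so its level is uncertain. Gabarap, a family member of late steps, averaged 153 ± 43.0 CPM in old and 147 ± 44.0 CPM in young samples (SD, n = 3 each). Gabarapl1 averaged 114 ± 37.7 CPM in old and 113 ± 29.8 CPM in young samples, with an interval of 0.551-fold to 1.82-fold. Sqstm1, which encodes the cargo receptor p62, had 157, 122 and 108 CPM in old samples and 150, 134 and 83.6 CPM in young samples, with a log2 fold change of 0.07 ± 0.34 (SE). Map1lc3a, the LC3A gene, was low, at 1.07 to 12.1 CPM in old samples and 3.10 to 17.8 CPM in young samples.

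Setting the 2 sides of the system next to each other, the lysosomal genes had the higher levels per length. The median level over both ages was 34.6 CPM per kilobase for the 20 lysosomal genes and 8.60 for the 11 autophagy genes. The median of edgeR's biological coefficient of variation, an estimate that depends on level, was 43.3% for the lysosomal and 53.3% for the autophagy genes. That difference was not tested. In the wider lists described below it was 56.5% for other lysosomal enzymes, 53.5% for other membrane and transport genes and 57.6% for other autophagy genes. The median log2 fold change of old against young was −0.22 for the lysosomal genes, with 14 of 20 negative and an interquartile range of −0.48 to 0.04, and 0.00 for the autophagy genes, with a range of −0.48 to 0.08. Over all tested genes that range was −0.62 to 0.60, but it is a spread of single genes, so it cannot judge a median of many. Among all genes of at least 50 CPM the median was 0.10, the range −0.26 to 0.44, and 41.7% were negative. The sign of the autophagy median turned with the scaling: under scaling by library size alone it was −0.13 and that of the lysosomal genes −0.36, where the median of all genes moved to −0.12.

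Summed over its genes, the lysosomal side came to 4109, 4434 and 4351 CPM in old samples and 4234, 5736 and 6073 CPM in young samples. The autophagy side came to 894, 778 and 753 CPM in old samples and 822, 785 and 753 CPM in young samples. The ratio of the lysosomal to the autophagy sum was 4.59, 5.70 and 5.78 in old samples and 5.15, 7.31 and 8.06 in young samples. Young samples 2 and 3 were thus above all old samples in the lysosomal sum and the ratio, and young sample 1 was within the old range. The means were 4298 ± 169 CPM in old and 5348 ± 979 CPM in young samples for the lysosomal sum and 808 ± 75.6 CPM in old and 787 ± 34.4 CPM in young samples for the autophagy sum (SD, n = 3 each).

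Equal weight for each gene gave another measure, in which Mcoln2, near 0 in young samples, counts as much as any other gene. The mean log2 CPM of the lysosomal genes was 6.59 ± 0.19 in old and 6.64 ± 0.16 in young samples, and that of the autophagy genes 5.13 ± 0.28 in old and 5.43 ± 0.14 in young samples (SD, n = 3 each). In that measure the samples of both ages overlapped for both sets. Mcoln2, with a log2 fold change of 8.70, raises the lysosomal mean of old samples relative to young ones. That mean therefore does not show that the other lysosomal genes were level between the ages. Of the 20 genes, 14 had a negative log2 fold change, and the median was −0.22. For the autophagy genes this mean was lower in old samples, while their median log2 fold change was 0.00. How the 2 sides compare therefore depends on the measure.

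The lysosomal sum leans on few genes, and Ctsd alone made up 18.1%, 19.9% and 16.1% of it in old samples and 18.3%, 22.9% and 27.3% in young samples. The macrophage markers, at 907 CPM in young sample 1 and 3958 and 5427 CPM in young samples 2 and 3, stood in the same order as the lysosomal sum over the young samples. Young sample 1 was the lowest young sample for 10 of 20 lysosomal genes, 3 of 11 autophagy genes and 16 of 18 macrophage markers. Over the 15297 tested genes with an annotated length, it was the lowest for 5840. The part of the macrophage RNA in the lysosomal sum was not tested.

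**Figure D4:**
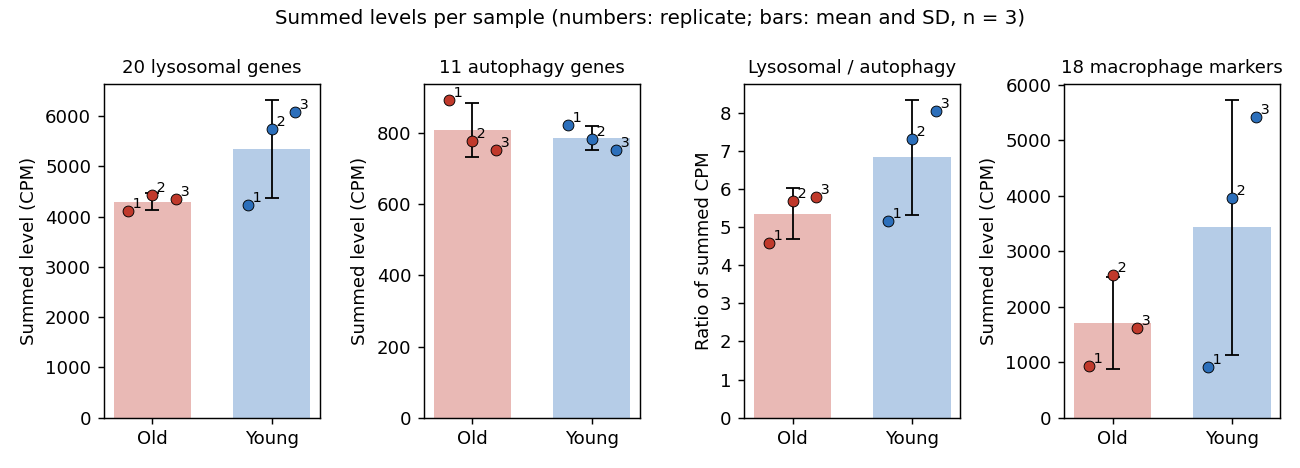
Summed CPM of the 20 lysosomal genes, the 11 autophagy genes and the 18 macrophage and microglia markers, and the ratio of lysosomal to autophagy sums, in each sample, old left of young, with bars at the mean and error bars of 1 SD (n = 3). The autophagy sums lie between 753 and 894 CPM in all 6 samples, while young sample 1 lies below young samples 2 and 3 in the lysosomal and macrophage sums.

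The wider system was read from further lists, in which the genes of smallest p are named and none of which had a gene past an adjusted p of 0.05 by edgeR. Of 35 other lysosomal enzyme genes, 24 had a negative log2 fold change, with a median of −0.38. At an unadjusted p under 0.05 by edgeR, 1 was higher and 4 were lower, against 2.86% and 2.70% of all tested genes. Ctsc, a dipeptidyl peptidase gene, had 9.35, 36.5 and 16.7 CPM in old samples and 21.7, 116 and 95.7 CPM in young samples, and young sample 1 lay between old values. Pla2g15, a lysosomal phospholipase gene, had 26.5, 7.19 and 3.22 CPM in old samples and 34.5, 56.4 and 57.8 CPM in young samples, without overlap. The log2 fold changes were −1.89 ± 0.75 for Ctsc and −2.01 ± 0.84 for Pla2g15 (SE).

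Among the tested genes of other lysosomal membrane and transport proteins, 26 of 28 listed, the median was 0.04 and 14 were positive, with 0 higher and 2 lower at an unadjusted p under 0.05. Igf2r, the large mannose 6-phosphate receptor that carries hydrolases to the lysosome, had 98.0, 80.2 and 60.3 CPM in old samples and 161, 134 and 147 CPM in young samples. Its ages did not overlap, and the log2 fold change was −0.89 ± 0.32 (SE). Abca2, a lipid transporter gene, had 18.4, 30.4 and 26.6 CPM in old samples and 124, 40.4 and 38.2 CPM in young samples, where young sample 1 was far above the rest. Nagpa, which uncovers the mannose 6-phosphate tag, had 32.6, 24.0 and 10.5 CPM in old samples and 24.3, 55.2 and 120 CPM in young samples, which overlapped.

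The V-ATPase, the proton pump that acidifies the lysosome, gave no common direction, with 9 of 18 subunit genes positive, a median of 0.03 and none under an unadjusted p of 0.05. Its smallest p was that of Atp6v1a, the catalytic subunit gene, with 94.9, 158 and 234 CPM in old samples and 79.7, 92.1 and 132 CPM in young samples. Atp6v1d and Atp6v1g1, of the central and peripheral stalks, came next, with log2 fold changes of 0.67 ± 0.58 and −0.62 ± 0.57 (SE).

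Of 40 other autophagy genes, 20 were positive and 20 negative, with a median of 0.01, and 0 were higher and 3 lower at an unadjusted p under 0.05 by edgeR. Wdr45, whose protein binds the phosphoinositide of the growing membrane, had 2.17, 5.16 and 2.39 CPM in old samples and 39.4, 24.9 and 15.1 CPM in young samples. Its ages did not overlap, and the log2 fold change was −3.03 ± 0.88 (SE), with an adjusted p of 0.752 by edgeR and 0.0150 by DESeq2. Calcoco1, an autophagy receptor of the endoplasmic reticulum and Golgi, had 24.3, 10.03 and 15.1 CPM in old samples and 86.0, 33.7 and 42.9 CPM in young samples. Atg3, the enzyme that transfers LC3 to its lipid, had 27.5, 31.8 and 14.3 CPM in old samples and 96.3, 49.8 and 40.3 CPM in young samples, and in both genes the old samples lay below the young ones.

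In the list of mTORC1 and TFEB control, 23 of 24 genes were tested, with a median of −0.29, 14 negative, and 0 higher and 2 lower at an unadjusted p under 0.05 by edgeR. Lamtor2, part of the scaffold that holds mTORC1 on the lysosome, had 8.23, 4.21 and 3.27 CPM in old samples and 20.5, 22.2 and 21.5 CPM in young samples. Tsc1, part of the complex that turns mTORC1 off, had 19.8, 32.3 and 31.3 CPM in old samples and 134, 35.4 and 47.9 CPM in young samples. Both were without overlap between the ages, and the log2 fold changes were −2.03 ± 0.83 and −1.38 ± 0.61 (SE). Prkag1, a subunit gene of the energy-sensing kinase AMPK, had 4.49, 4.87 and 9.67 CPM in old samples and 7.94, 32.9 and 22.3 CPM in young samples, which overlapped.

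**Figure D5:**
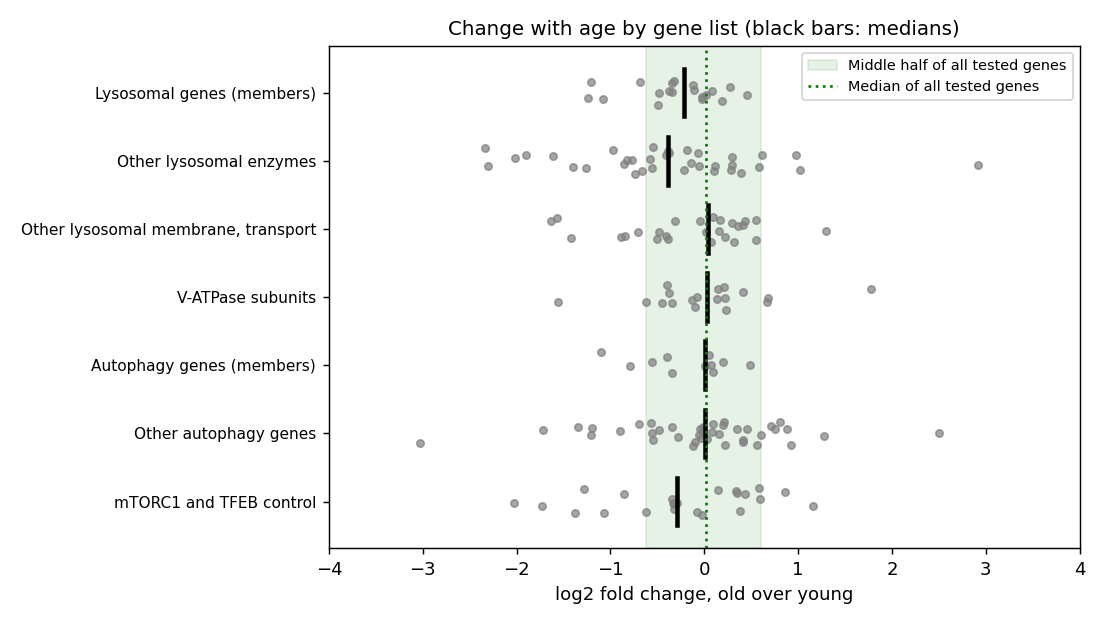
Log2 fold change of old against young for each tested gene of the lysosomal and autophagy groups and the wider lists, 1 point per gene, with a black bar at each median and a green band over the interquartile range of all tested genes. The medians lie between −0.38 and 0.04, and Mcoln2 lies outside the axis. The band of −0.62 to 0.60 shows the spread of single genes of all levels, not of medians.

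Beside these lists, most macrophage and fibroblast markers had a negative log2 fold change of old against young, with medians of −1.53 and −1.17, and the 10 lymphatic markers were all positive, with a median of 0.60. At an unadjusted p under 0.05 by edgeR, 7 of 10 lymphatic markers were higher and 0 were lower. Of 12 fibroblast markers 8 were lower and 1 was higher, and of the 18 macrophage markers 0 were lower and 1 was higher. Over all tested genes 2.70% were lower and 2.86% higher. The 8 tested blood endothelium markers were all positive, with a median of 0.84, and 9 of 11 pericyte and smooth muscle markers were positive, with a median of 1.11. By the same unadjusted p, 4 of these blood endothelium and 3 of these pericyte and smooth muscle markers were higher, and 0 were lower. The share of mitochondrial rRNA in the counts was 20.17%, 21.89% and 16.04% in old samples and 15.65% to 16.52% in young samples. The fibroblast markers summed to 3226, 4873 and 4244 CPM in old samples and 9038, 6617 and 6009 CPM in young samples. They were highest in young sample 1. Of the 33 genes, Lamp2, Hexa, Gla and Atg7 were also highest there, Lamp2 and Hexa by a narrow margin. So were Igf2r, Abca2, Atp6v1g1, Wdr45, Calcoco1, Atg3 and Tsc1 among the genes of smallest p named from the wider lists. How far these shifts in the makeup of the samples enter the values of the lysosomal and autophagy genes was not tested.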

How the data were processed

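RNA of 3 old and 3 young samples was compared. The estimated counts per gene are used as deposited by the authors, and they were whole numbers. FastQC, Salmon and mm10 appear, without versions, in the submitters' processing notes. Not given in the sources used here are the annotation, the step from transcripts to genes, the rounding and strandedness. Salmon splits reads shared by near-identical transcripts, so genes with copies are uncertain. Depth was 14285794 to 21043945 estimated counts per sample.

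Symbols, 1-based positions and exon lengths come from GENCODE M21 (GRCm38), which named 22738 of 22964 genes. The test was that of edgeR 4.0.16 under R 4.3.3 (filterByExpr with a minimum of 10 counts and a total of 15, TMM factors, robust quasi-likelihood fit on age, two-sided, Benjamini-Hochberg adjustment at 0.05). The filter kept 15394 genes and removed 7570. SE was derived from the test statistic. CPM is the count scaled to a TMM-adjusted library of 1000000. Near-identical copies were sought with minimap2 2.31-r1302, and promoter motifs in RefSeq windows. The gene test was tested on simulated data. No 2 samples agreed within sampling noise.

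The alternatives were RLE scaling, library size alone, DESeq2 1.42.0, limma-voom (limma 3.58.1), other count filters, a block on replicate number and leaving out each sample. The member genes, lists and tests were chosen with earlier results of these data known. All 33 genes are named, the 3 genes of smallest p in each wider list (1 of these is not reported here), and the markers Prox1, Ptprc, Cd68 and C1qa. Any other gene is marked in the text as chosen after its values were seen, or is named as overlapping a member.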

Additional observations from a re-analysis of the deposited data

How the results depend on the processing

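The number of genes past an adjusted p of 0.05 was 0 with edgeR in every scaling, filter and block tried, 130 with DESeq2 and 3 with limma-voom, and 0 to 1 when 1 sample was left out (1 without old sample 1). Of the 33 genes, the number higher at an unadjusted p under 0.05 was 1 in every setting. It was Mcoln2, which passed the count filter of the main fit through the old samples alone. The number lower was 3 or 4 in the other settings (with Atg16l1 added under library size alone, and in place of Ctsd with DESeq2) and 1 to 4 when 1 sample was left out. The lysosomal median log2 fold change stayed negative, between −0.36 and −0.14. The autophagy median lay between −0.19 and 0.05, so its sign is not settled. The labels do not say whether replicate numbers pair the samples. Deviations of same-numbered samples correlated at 0.0792, 0.0533 and −0.0119, and those of differently numbered samples at −0.0945 to 0.0593, which cannot settle it. With the block, 0 genes were called and 1 and 3 of the 33 were higher and lower. For Mcoln2, DESeq2 alone gave an adjusted p under 0.05, with a log2 fold change of 9.19.

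The sign of 9 genes with estimates near 0 turned in at least 1 other setting, and the cause was not tested. With library size alone the log2 fold changes were −0.068 for Ctsb, −0.10 for Lipa, −0.031 for Atg5, −0.081 for Gabarap, −0.13 for Gabarapl1 and −0.071 for Sqstm1, where the median of all genes was −0.12. With limma-voom they were −0.53 for Gusb, −0.12 for Lipa and −0.11 for Becn1. With the block they were −0.047 for Gusb, −0.19 for Lipa and −0.024 for Gabarapl1. Glb1 was 0.011 with RLE and with DESeq2, and Gabarapl1 was −0.003 unfiltered and −0.004 with a mean of at least 50 counts. Leaving out 1 sample turned 16 genes, whose log2 fold changes then ran from −0.13 to 0.24 for Ctsb, −0.078 to 0.032 for Ctsl, −0.34 to 0.19 for Tpp1, −1.07 to 0.39 for Glb1, −0.43 to 0.78 for Gusb, −0.47 to 0.43 for Lipa, −0.66 to 0.21 for Asah1, −1.004 to 0.25 for Tfeb, −0.18 to 0.84 for Tfe3, −0.32 to 0.64 for Becn1, −0.56 to 0.91 for Atg5, −2.19 to 0.70 for Atg12, −1.52 to 0.39 for Map1lc3a, −0.19 to 0.32 for Gabarap, −0.20 to 0.25 for Gabarapl1 and −0.15 to 0.24 for Sqstm1. The spread between samples of 1 age limits what 3 samples per age can show. The biological coefficient of variation estimated by edgeR had a median of 45.0% over the 33 genes.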

Other observations

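Further lysosomal genes of the wider lists, chosen after their values were seen, differed in how far they varied with the macrophage markers. Ctss, a cathepsin gene of antigen-presenting cells, had 67.1, 149 and 72.8 CPM in old samples and 10.98, 419 and 452 CPM in young samples. Lgmn, an asparaginyl endopeptidase gene, had 96.4, 122 and 123 CPM in old samples and 55.2, 233 and 251 CPM in young samples. In both, young sample 1 was the lowest of all 6 samples. Naglu, a glycosidase gene of heparan sulfate breakdown, had 30.4, 20.9 and 33 CPM in old samples and 108, 42.5 and 51.3 CPM in young samples, and there young sample 1, which also had the highest fibroblast marker sum, was the highest.

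Ctso, a cysteine protease gene chosen in the same way, was the 1 other lysosomal enzyme gene that was higher in old samples at an unadjusted p under 0.05 by edgeR. It had 82.8, 87.0 and 63.8 CPM in old samples and 42.6, 43.9 and 32.0 CPM in young samples, without overlap, and a log2 fold change of 0.98 ± 0.41 (SE). Its edgeR adjusted p was 0.888. Of the 18 macrophage and microglia markers, Mrc1, named after its values were seen, was the 1 with a positive log2 fold change, at 679, 414 and 739 CPM in old samples and 401, 452 and 362 CPM in young samples. It made up most of the marker sum of 935 CPM in old sample 1. It was also a large part of the 1614 CPM in old sample 3 and the 907 CPM in young sample 1. In old sample 2 and young samples 2 and 3, with sums of 2576, 3958 and 5427 CPM, it was a small part.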
